A study of Mus musculus with 24 samples.

Results

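The 10 genes described here are the caudal and neuromesodermal genes Cdx1, Cdx2, Cdx4, T, Nkx1-2, Wnt3a, Wnt8a, Fgf8, Tbx6 and Evx1, out of 21553 genes with counts. Members were taken by gene symbol, and the set was built around Cdx1, which is among the largest falls in slow/slow neurons. The neuron genotype difference and the steps from NPCs to neurons are therefore given as a description with no test. All 10 genes passed the filter on low counts, which left 16627 genes to test.

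The study sequenced poly(A)+ RNA from WT mouse embryonic stem cells (ESCs) and from slow/slow ESCs, which carry the R749H mutation on both alleles of Polr2a, the gene of the largest subunit of RNA polymerase II. R749H is a substitution that slows elongation. Both genotypes were profiled as ESCs in 2i medium, which contains 3 µM of the GSK3 inhibitor CHIR99021, an activator of canonical Wnt signalling, and 1 µM of the MEK inhibitor PD0325901. They were also profiled as neural progenitor cells (NPCs) at day 7 of monolayer differentiation, as cells carrying the surface marker PSA-NCAM (PSA-NCAM+) at day 10, and as neurons grown for 14 days after replating. Each of the 8 groups had 3 samples, and samples had 32974432 to 104466886 counted reads. The study's published methods describe those of ESCs, NPCs and neurons as independent differentiation experiments, and do not name PSA-NCAM+ cells there.

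The genotypes differed in more than the allele. The slow/slow line was made by targeting one allele and then the other in E14 ESCs, and the number of clones is not given in the sources used here. WT cells were plated for differentiation at 10000 cells per cm2 and slow/slow cells at 30000 cells per cm2 in the NPC and PSA-NCAM+ samples, so genotype and plating density cannot be told apart there. By the study's methods, neurons were grown from day 7 cultures that were detached and replated. Genotype and the density of those earlier cultures may therefore not be told apart in neurons either. Summed transcripts of the Y-linked genes were 78.9 to 148 counts per 1000000 scaled counts (CPM) in the 12 WT libraries and 0.393 to 1.94 CPM in 11 slow/slow libraries. The library labelled slow/slow PSA-NCAM+ replicate 1 had 62.6 CPM, which goes against its group, and the members' genotype differences in PSA-NCAM+ cells are given with and without it. The WT NPC samples still held 2430 to 2520 CPM of 7 pluripotency markers, Sox2 among them, against 6390 to 6840 CPM in WT ESCs. Neural progenitor markers summed to 208 to 225 CPM in WT NPCs and to 250 to 295 CPM in WT ESCs. Their sum was thus no higher in the WT samples labelled NPC than in WT ESCs. Most of it lay in Vim, which averaged 175 CPM in WT NPCs. Sums of different lists are not compared with each other. In bulk samples, fewer cells of a type and less RNA per cell cannot be told apart.

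These genes are known from the tail end of the gastrulating embryo. There, neuromesodermal progenitors co-express T and Sox2 and supply both the spinal cord and the paraxial mesoderm. Wnt3a, Wnt8a and Fgf8 are the secreted signals that maintain this region, the transcription factors T, Nkx1-2 and the Cdx proteins act inside its cells, Tbx6 directs cells to paraxial mesoderm, and Evx1 marks the posterior streak and, later, a class of spinal interneurons. Cdx proteins activate trunk Hox genes and share a Wnt-responsive circuit with T. The genes lie on separate loci of GRCm38, among them T at chr17:8434423-8442496, Tbx6 at chr7:126781483-126785560, Nkx1-2 at chr7:132594878-132599637, Cdx2 at chr5:147300805-147307270, Cdx4 at chrX:103321398-103330592, Wnt3a at chr11:59248033-59290752, Fgf8 at chr19:45736798-45742915 and Evx1 at chr6:52313498-52318378.

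The promoter of T is shown because T is the founding factor of this network and its window was the only one among the members that held a searched motif. The windows covered 250 bases before to 50 bases after the start, taken from RefSeq on GRCm38.p6, and 7 of the 10 members matched an entry. The cores of 3 factor families were searched on both strands, and none contains another. The CDX core TTTATG stood in 11.9% of 32851 windows, the T-box core TCACACC in 3.98%, and the TCF/LEF core, CTTTGAT or CTTTGAA, in 8.65%. In the T sequence at chr17:8434173-8434422, on the plus strand, capitals mark a TCF/LEF core read on the opposite strand and a CDX core. The Cdx2 sequence, at chr5:147307250-147307499 on the minus strand, is shown beside it without a match, as the Cdx gene with the highest level in WT neurons.
T: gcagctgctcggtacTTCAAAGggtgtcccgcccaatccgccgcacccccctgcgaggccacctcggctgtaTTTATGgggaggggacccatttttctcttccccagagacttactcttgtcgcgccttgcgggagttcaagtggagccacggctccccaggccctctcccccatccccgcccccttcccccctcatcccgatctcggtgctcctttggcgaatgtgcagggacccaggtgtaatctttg
Cdx2: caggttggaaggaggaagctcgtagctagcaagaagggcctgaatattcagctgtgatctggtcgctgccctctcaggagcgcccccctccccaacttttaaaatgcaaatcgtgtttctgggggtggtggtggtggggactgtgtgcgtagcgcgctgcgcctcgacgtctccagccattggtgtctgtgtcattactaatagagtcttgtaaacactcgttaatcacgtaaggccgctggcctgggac
The matches began 235 and 178 bases before the start of T. The windows of the other 6 matched members, Cdx2, Cdx4, Nkx1-2, Wnt3a, Tbx6 and Evx1, held none of these letters.

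In WT cells the caudal genes were highest in the neuron cultures, with Cdx1 as the exception. Levels per kilobase of exon in WT neurons ran from 33.2 ± 4.26 CPM per kb for T (SD, n = 3), through 22.4 ± 1.5 for Cdx2, 16.0 ± 2.01 for Nkx1-2, 9.85 ± 2.15 for Wnt8a, 6.5 ± 0.421 for Cdx1 and 6.42 ± 0.386 for Fgf8, down to 1.12 ± 0.238 for Cdx4. The levels of Cdx1 and Fgf8 were within their spread. Cdx1, by contrast, had its highest level in ESCs, with 190, 186 and 232 CPM in the WT samples and 221, 198 and 197 CPM in slow/slow, and fell in WT NPCs to 6.01, 5.54 and 5.49 CPM, by 5.16 ± 0.21 (log2 ± SE, edgeR FDR = 6.31e-14).

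**Figure D1:**
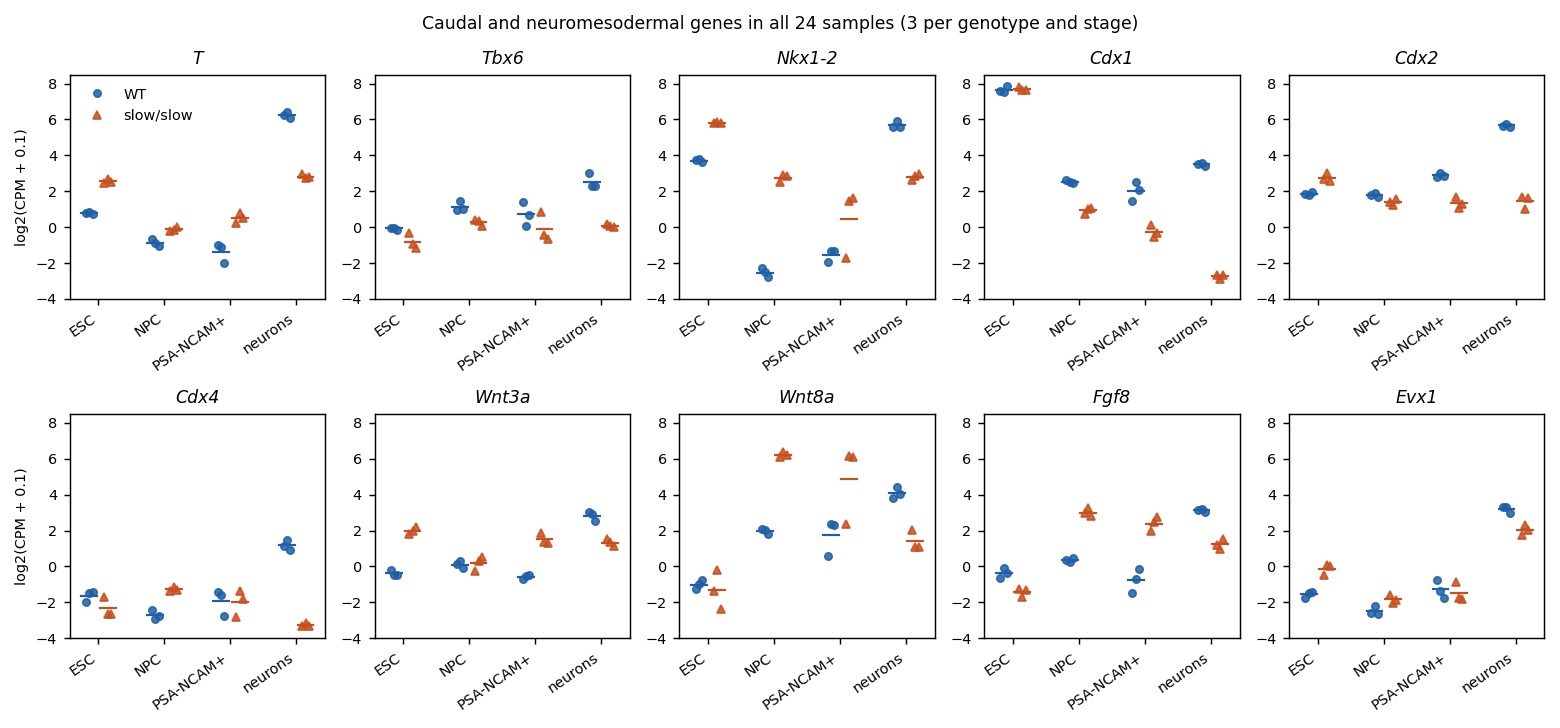
Level of each caudal or neuromesodermal gene in all 24 samples, as log2(CPM + 0.1) on the vertical axis, by stage, with WT as blue circles, slow/slow as orange triangles and the group mean as a bar. In neurons all 3 slow/slow samples lie below all 3 WT samples for all 10 genes, and in PSA-NCAM+ cells 1 slow/slow sample lies near WT for Nkx1-2 and Wnt8a.

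Between ESCs and NPCs of the WT line, 9 of the 10 genes changed (edgeR FDR under 0.05), 4 upwards and 5 downwards, beside 65.6% of all genes tested, 34.0% higher and 31.6% lower. Nkx1-2, a homeobox gene of the caudal epiblast, fell from 13, 13.6 and 12.4 CPM to 0.104, 0.0755 and 0.045 CPM, 13 reads in all 3 NPC samples together. T, Cdx4, Cdx1 and Evx1 fell as well, while Wnt8a rose from 0.319, 0.402 and 0.485 CPM to 4.16, 4.04 and 3.45 CPM (log2 3.28 ± 0.78, edgeR FDR = 0.000987). Tbx6 rose by 1.33 ± 0.38 (edgeR FDR = 0.00473), while Wnt3a and Fgf8 rose by 0.54 ± 0.23 and 0.80 ± 0.30 (edgeR FDR = 0.0471 and 0.0247), calls that were each lost in 4 of the 6 fits without 1 sample. Cdx2 did not pass the test (log2 -0.10 ± 0.17).

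From WT NPCs to neurons the genes rose together. All 9 genes tested were called higher in neurons, beside 41.4% of all genes called higher and 80.2% called in either direction, with a median log2 change of 3.93 over the 9 and 0.04 over all genes. The members were chosen with the neuron genotype contrast in view, and the WT neuron samples are part of it. Nothing is therefore read from this count or from the FDR values of this step. Cdx1 is described only (log2 1.00 ± 0.18). T, the Brachyury factor, went from 0.541, 0.438 and 0.375 CPM to 77.2, 86.4 and 66.7 CPM (log2 7.42 ± 0.24, edgeR FDR = 3.42e-16). Nkx1-2 reached 48.5, 59.7 and 48.1 CPM (log2 9.46 ± 0.63, edgeR FDR = 1.78e-11), from a progenitor level of a few reads. Evx1 and Cdx4 rose by 6.74 ± 0.40 and 5.39 ± 0.58, Cdx2 by 3.93 ± 0.19, and the ligands Fgf8, Wnt3a and Wnt8a by 2.87 ± 0.29, 2.85 ± 0.22 and 2.15 ± 0.61 (all log2 ± SE, past the edgeR threshold). Tbx6 rose least among the 9 tested, by 1.43 ± 0.36. The same samples held 3020 to 3280 CPM of 6 neuronal markers, and Msgn1, a marker of presomitic mesoderm, stood at 2.38, 2.1 and 1.17 CPM against at most 0.0302 CPM in WT NPCs.

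In slow/slow cells that rise was seen for fewer genes. The slow/slow neuron samples are part of the neuron genotype contrast too, so this step is also described with no test for the members. Of all genes, 75.0% were called from NPCs to neurons, 38.4% higher and 36.6% lower. T rose from 0.763, 0.811 and 0.887 CPM to 7.63, 6.47 and 6.82 CPM (log2 3.09 ± 0.21), Evx1 by 4.40 ± 0.36 and Wnt3a by 1.21 ± 0.22. Wnt8a fell by 4.79 ± 0.68 and Fgf8 fell by 1.82 ± 0.27. Cdx4 fell from 49 reads in 3 NPC samples to 1 read in 3 neuron samples, and Cdx1 differed by -5.14 ± 0.39. Cdx2, Nkx1-2 and Tbx6 differed by log2 0.06 ± 0.18, 0.05 ± 0.39 and -0.21 ± 0.38. The difference between the 2 genotypes in these steps was not tested, since it rests on the neuron contrast.

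In ESCs, where both genotypes grew in the same Wnt-activating medium, slow/slow cells held more of several caudal transcripts. Of the 10 genes 6 were called, 5 higher and 1 lower, beside 40.4% of all genes, 18.5% higher and 21.9% lower. Wnt3a stood at 0.76, 0.631 and 0.611 CPM in WT and at 3.35, 3.89 and 4.43 CPM in slow/slow ESCs (log2 2.53 ± 0.23, edgeR FDR = 4.43e-08). Nkx1-2 was at 13, 13.6 and 12.4 CPM in WT and 55.1, 57.9 and 54.9 CPM in slow/slow (log2 2.10 ± 0.39, edgeR FDR = 0.000223). T was at 1.64, 1.66 and 1.55 CPM in WT and 5.4, 6.3 and 5.67 CPM in slow/slow (log2 1.84 ± 0.20, edgeR FDR = 3.56e-07). Evx1 and Cdx2 were also higher, by 1.77 ± 0.37 and 0.92 ± 0.17 (edgeR FDR = 0.000629 and 0.000275), with Evx1 resting on 9 to 47 reads a sample.

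The other members did not share that direction. Fgf8 was lower in slow/slow ESCs, at 0.317, 0.205 and 0.31 CPM against 0.547, 0.832 and 0.683 CPM (log2 -1.30 ± 0.36, edgeR FDR = 0.0066). Cdx1, the most abundant member in ESCs, differed by 0.02 ± 0.17 between genotypes, and the samples overlapped. Cdx4, Tbx6 and Wnt8a did not pass the test, at -0.98 ± 0.63, -0.77 ± 0.42 and 0.04 ± 0.98, and none of them exceeded 1 CPM in an ESC sample. Tbx6 passed when only the ESC groups were fitted (log2 -0.75, edgeR FDR = 0.019).

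In NPCs the members went in both directions, with large rises among the signals. Here 8 of 10 genes were called, 6 higher and 2 lower, beside 56.7% of all genes, 29.3% higher and 27.4% lower. Wnt8a stood at 4.16, 4.04 and 3.45 CPM in WT against 67.1, 81.4 and 74.7 CPM in slow/slow NPCs (log2 4.26 ± 0.66, edgeR FDR = 2.17e-05). Fgf8 was at 1.19, 1.09 and 1.27 CPM against 7.79, 9.31 and 6.83 CPM (log2 2.75 ± 0.29, edgeR FDR = 1.67e-07). Wnt3a, at 0.978, 1.12 and 0.825 CPM in WT and 0.738, 1.12 and 1.33 CPM in slow/slow, did not pass the test (log2 0.11 ± 0.22).

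Among the transcription factors of slow/slow NPCs, Nkx1-2 showed the largest difference of the set, with 0.104, 0.0755 and 0.045 CPM in WT and 5.55, 7.47 and 7.2 CPM in slow/slow (log2 6.50 ± 0.62, edgeR FDR = 5.6e-08). T was 0.87 ± 0.24 higher (edgeR FDR = 0.00431) and Cdx4 2.58 ± 0.64 higher (edgeR FDR = 0.00205), the latter on 2 to 4 reads a sample in WT and 12 to 22 in slow/slow. Evx1 was higher at an edgeR FDR of 0.0417 (log2 1.18 ± 0.48) on at most 18 reads a sample, and lost its call with DESeq2 size factors (FDR = 0.0501). Cdx1 was lower, at 1.55, 1.89 and 2.02 CPM against 6.01, 5.54 and 5.49 CPM (log2 -1.66 ± 0.21, edgeR FDR = 1.46e-06), and Tbx6 was lower by 0.95 ± 0.37 (edgeR FDR = 0.0369), a call lost when any 1 of 5 NPC samples was dropped, as was that of Evx1 for 4 of the 6 samples. Cdx2 missed the threshold (log2 -0.40 ± 0.18, edgeR FDR = 0.0617). It passed with upper-quartile scaling and by DESeq2 (FDR = 0.0441 and 0.04).

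Cultures of the 2 genotypes also differed in markers of other cells at this stage. Pluripotency markers summed to 2430 to 2520 CPM in WT NPCs and to 1630 to 1850 CPM in slow/slow. The 5 neural progenitor markers found summed to 208 to 225 and 447 to 563 CPM, and the 6 neuronal markers to 97.6 to 106 and 248 to 285 CPM. Most of the progenitor sum lay in Vim, at 175 and 313 CPM. Pax6 averaged 4.3 and 40.9 CPM, and Sox3 3.25 and 35.4 CPM. The 8 trophectoderm markers, a lineage that uses Cdx2, summed to 1220 to 1300 CPM in WT NPCs and 368 to 515 CPM in the slow/slow ones, and the 8 gut-type markers, of a tissue that uses Cdx1 and Cdx2, to 24.8 to 25.0 and 9.07 to 9.87 CPM. Most of the trophectoderm sums lay in Krt8 and Krt18, which averaged 515 and 550 CPM in WT and 232 and 161 CPM in slow/slow. Tfap2c, Esx1 and Hand1 were also lower in slow/slow. Gata3 averaged 6.99 CPM (WT) and 8.95 CPM (slow/slow), and Elf5 and Tpbpa were near 0. The 6 markers of paraxial mesoderm had a higher sum in slow/slow, with 29.0 to 31.5 CPM in WT and 54.3 to 60.1 CPM in slow/slow, although Msgn1 was at or near 0 in both. Most of that sum lay in Tcf15, at 24.8 and 43.4 CPM, whose difference did not pass the test (log2 0.81). Meox1 averaged 1.51 and 4.99 CPM, Pax3 3.15 and 6.9 CPM, and Foxc2 0.971 and 0.892 CPM. The part of all these markers in the results was not tested.

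The genotype difference itself changed between ESCs and NPCs for most members. In the interaction test 8 of 10 genes were called, 4 in each direction, beside 24.6% of all genes, 13.6% higher and 11.0% lower. The slow/slow minus WT difference moved upwards for Nkx1-2 (4.40 ± 0.77), Wnt8a (4.22 ± 1.17), Fgf8 (4.05 ± 0.45) and Cdx4 (3.56 ± 0.90). It moved downwards for Wnt3a (-2.42 ± 0.32), Cdx1 (-1.67 ± 0.27), Cdx2 (-1.31 ± 0.25) and T (-0.97 ± 0.31, a call lost in 3 of 12 fits without 1 sample). Tbx6 and Evx1 did not pass (-0.17 ± 0.57 and -0.60 ± 0.63).

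**Figure D2:**
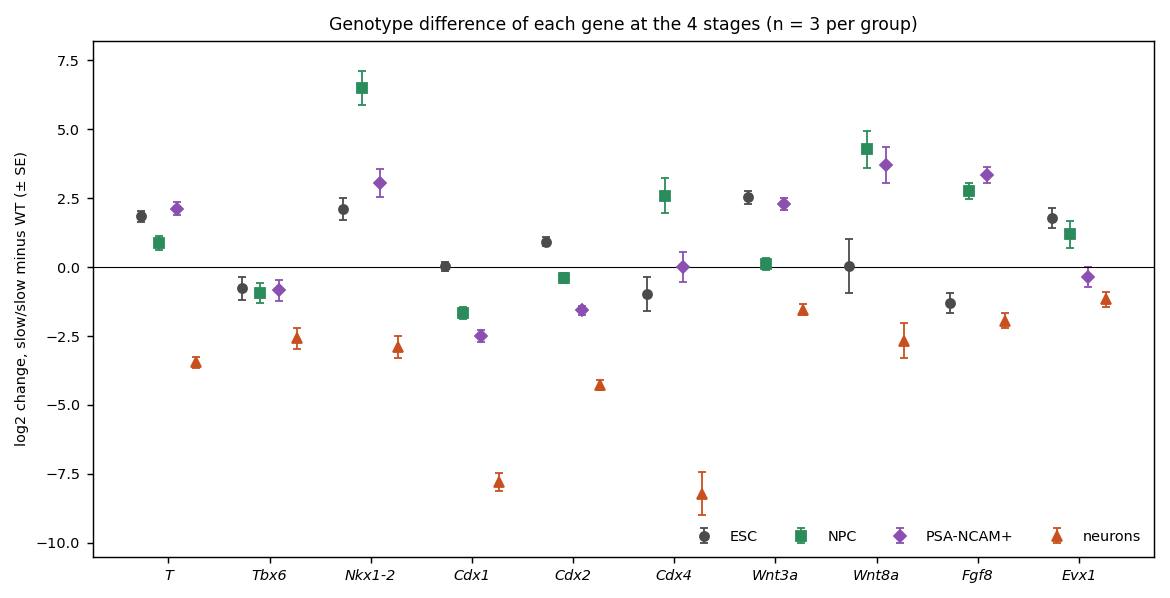
Log2 change of each gene, slow/slow minus WT, with its SE as a bar, at the 4 stages (black circles ESCs, green squares NPCs, purple diamonds PSA-NCAM+ cells, orange triangles neurons; n = 3 per group). The neuron values, which are a description, are below 0 for all 10 genes, while the ESC, NPC and PSA-NCAM+ values lie on both sides of 0; the neuron value of Cdx4 rests on 1 read in slow/slow.

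In PSA-NCAM+ cells 7 of 10 genes were called, 5 higher and 2 lower, beside 56.7% of all genes, 28.6% higher and 28.1% lower. Without slow/slow replicate 1, 9 were called, 5 higher and 4 lower, beside 68.9%. Fgf8 was at 0.254, 0.525 and 0.814 CPM in WT and at 3.78, 5.48 and 6.56 CPM in slow/slow (log2 3.34 ± 0.30, edgeR FDR = 2.37e-08, and 3.56 ± 0.27 without replicate 1). Wnt3a was at 0.521, 0.584 and 0.619 CPM against 3.47, 2.45 and 2.4 CPM (log2 2.27 ± 0.22, edgeR FDR = 7.34e-08, and 2.11 ± 0.22 without replicate 1). T was likewise higher, by 2.12 ± 0.23 with all samples and 2.26 ± 0.22 without replicate 1. These 3 genes were above WT in every slow/slow sample, the one that goes against its label included.

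For Nkx1-2 and Wnt8a that library stood apart from the other 2 slow/slow samples. Nkx1-2 was at 0.162, 0.292 and 0.293 CPM in WT and at 0.204, 2.6 and 2.96 CPM in slow/slow, replicate 1 first. Wnt8a was at 1.39, 4.96 and 4.84 CPM in WT and at 5.02, 71.5 and 68.2 CPM in slow/slow. Replicate 1 thus lay inside the WT range for Nkx1-2 and next to it for Wnt8a. With all samples the log2 changes were 3.04 ± 0.52 and 3.71 ± 0.65 (edgeR FDR = 5.79e-05 and 6.93e-05), and without replicate 1 they were 3.56 ± 0.21 and 4.28 ± 0.37 (edgeR FDR = 5.27e-12 and 2.13e-09). When only the PSA-NCAM+ groups were fitted, Nkx1-2 lost its call (edgeR FDR = 0.0571).

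Cdx1 and Cdx2 were lower in these cells. Cdx1 was at 2.63, 5.72 and 4.14 CPM in WT and 1, 0.586 and 0.688 CPM in slow/slow (log2 -2.49 ± 0.22, edgeR FDR = 1.74e-08, and -2.65 ± 0.24 without replicate 1). Cdx2 was at 6.85, 7.98 and 7.15 CPM against 3.12, 2 and 2.33 CPM (log2 -1.57 ± 0.17, edgeR FDR = 3.14e-07, and -1.73 ± 0.17 without replicate 1). Tbx6 missed the threshold with all samples (log2 -0.85 ± 0.37, edgeR FDR = 0.0574), passed with the replicate number as a block (log2 -0.88 ± 0.30, edgeR FDR = 0.0185) and without replicate 1 (log2 -1.51 ± 0.33, edgeR FDR = 0.00036). Evx1 was called only without replicate 1 (log2 -0.82 ± 0.35, edgeR FDR = 0.0441), on 12 to 43 reads a sample. For Cdx4 the difference was -0.01 ± 0.54, and 0.36 ± 0.46 without replicate 1, on 2 to 27 reads a sample. Trophectoderm markers summed to 2250 to 5950 CPM in WT, to 430 and 523 CPM in slow/slow replicates 2 and 3, and to 3130 CPM in slow/slow replicate 1. The genotypes therefore did not overlap in these markers without replicate 1. Most of these sums lay in Krt8 and Krt18, and the markers' part in the Cdx2 result was not tested. Pluripotency markers summed to 1640 to 2210 CPM in WT and 970 to 1060 CPM in slow/slow. Neural progenitor markers summed to 583 to 797 and 1310 to 1550 CPM. The 4 markers of PSA-NCAM+ cells summed to only 28.9 to 32.7 CPM in the WT samples of that label, against 1780 to 1880 CPM in WT neurons. In slow/slow they summed to 76.6 and 92.3 CPM in replicates 2 and 3 and to 40.0 CPM in replicate 1. The part of these lists was not tested either.

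From NPCs to PSA-NCAM+ cells fewer members changed. In WT, 5 of 10 were called, 3 higher and 2 lower, beside 41.3% of all genes, 21.8% higher and 19.5% lower. Cdx2 rose by 1.14 ± 0.17 (edgeR FDR = 3.69e-05), from 3.31, 3.61 and 3.06 CPM to 6.85, 7.98 and 7.15 CPM, Evx1 rose by 2.00 ± 0.43 and Cdx4 by 1.85 ± 0.66 (edgeR FDR = 0.0316, lost in 4 of 6 fits without 1 sample), while Wnt3a and Fgf8 fell by 0.76 ± 0.23 and 1.18 ± 0.30. Wnt3a lost its call without WT NPC replicate 2 (log2 -0.64, edgeR FDR = 0.0625), and Fgf8 when only these groups were fitted (edgeR FDR = 0.0572). In slow/slow, 4 were called, 2 in each direction, beside 42.3%, 22.5% higher and 19.8% lower. There Wnt3a rose by 1.40 ± 0.22 and T by 0.74 ± 0.21, while Cdx1 and Nkx1-2 fell by 1.30 ± 0.24 and 1.75 ± 0.40. T and Nkx1-2 lost their calls when only the groups compared were fitted (edgeR FDR = 0.0806 and 0.156). Without slow/slow PSA-NCAM+ replicate 1, 5 were called. Nkx1-2 then fell by 1.25, and the change of Tbx6, -0.27 with all samples, became -0.92 (edgeR FDR = 0.0325). From ESCs to NPCs, all 10 genes were called in slow/slow, 4 higher and 6 lower, beside 62.3% of all genes (33.9% higher and 28.4% lower), with Wnt8a rising by 7.50 ± 0.83 and Fgf8 by 4.86 ± 0.34. The rises of Cdx4 and Tbx6 in that step (1.47 ± 0.60 and 1.16 ± 0.42) lost their calls in 5 and 3 of the 6 fits without 1 sample.

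In neurons every member was lower in slow/slow, and no group of 3 overlapped with the other. Of all genes, 51.9% were called in this contrast and 28.4% were called lower. No call is given for the members. Nothing is read from their shared direction, since Cdx1 was picked on this contrast and the members were chosen with it in view. The median difference was -2.79 over the members and -0.06 over all genes. For non-overlapping lower samples the share over all genes was 42.0%.

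Cdx1 stood at 11.5, 12 and 10.6 CPM in WT neurons and at 0.0596, 0.0373 and 0.0548 CPM in slow/slow, which is 2597 against 9 reads. Cdx4 was at 2.09, 2.71 and 1.8 CPM against 0, 0.0124 and 0 CPM, 492 reads against 1. Cdx4's ratio of WT to slow/slow was 391 with a 95% exact interval of 69.9 to 15500, which covers counting error only. That of Cdx1 was 229, given without an interval because Cdx1 was picked for its fall in this contrast. Cdx2, the third of the family, was at 49.7, 54.5 and 48 CPM against 3.07, 1.93 and 2.96 CPM (log2 -4.27 ± 0.19). Cdx2 nevertheless stayed at a level in slow/slow neurons that overlapped with slow/slow NPCs, whereas Cdx1 and Cdx4 were at their lowest of all 8 groups.

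T was at 77.2, 86.4 and 66.7 CPM in WT neurons against 7.63, 6.47 and 6.82 CPM in slow/slow (log2 -3.46 ± 0.19). Nkx1-2 was at 48.5, 59.7 and 48.1 CPM against 6.08, 7.19 and 7.59 CPM (log2 -2.91 ± 0.40). Tbx6 was at 7.83, 4.77 and 4.7 CPM against 1.03, 0.934 and 0.904 CPM (log2 -2.59 ± 0.38). For T the slow/slow level, although lower than WT, was above that of every ESC, NPC and PSA-NCAM+ sample of either genotype. The ligands differed by less than the Cdx genes. Wnt8a was at 13.9, 21.2 and 16.5 CPM against 3.98, 2 and 2.03 CPM (log2 -2.67 ± 0.63). Fgf8 was at 8.84, 9.08 and 8.08 CPM against 2.22, 1.83 and 2.77 CPM (log2 -1.94 ± 0.27). Wnt3a was at 7.98, 7.41 and 5.77 CPM against 2.74, 2.46 and 2.06 CPM (log2 -1.54 ± 0.21). The smallest difference was that of Evx1, at 9.67, 9.81 and 7.72 CPM against 3.2, 4.93 and 3.97 CPM (log2 -1.17 ± 0.28), which in spinal cord also marks interneurons.

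Markers of other cells moved with these values in both directions. The 6 neuronal markers summed to 3020 to 3280 CPM in WT and 2270 to 2500 CPM in slow/slow neurons, and the 5 neural progenitor markers found to 1790 to 2070 and 2070 to 2360 CPM. Paraxial mesoderm markers summed to 41.2 to 58.5 CPM in WT and 129 to 159 CPM in slow/slow, yet its defining gene Msgn1 had no read in the 3 slow/slow samples. Most of that sum lay in Pax3, also a gene of the dorsal neural tube, which averaged 4.15 CPM (WT) and 81.2 CPM (slow/slow), and in Uncx, at 32.6 and 51.1 CPM. Foxc2 averaged 2.83 and 8.98 CPM and Tcf15 2.29 and 2.6 CPM, while Meox1 averaged 6.63 and 1.45 CPM. Gut-type markers were few, at 2.46 to 3.59 and 4.47 to 5.66 CPM, and none of the 8 averaged 1 CPM in WT. The trophectoderm list was higher in slow/slow, at 396 to 422 CPM against 172 to 217 CPM. Most of its sum lay in Krt8 and Krt18, which averaged 193 and 135 CPM in slow/slow and 100 and 58.2 CPM in WT. The part of these markers in the neuron differences was not tested. Nkx1-2 and Evx1 share exonic sequence with the antisense genes Gm16764 and Evx1os. The kit was stranded, but whether the counting used strand is not stated, so reads of these pairs may not be told apart.

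Genes that respond to the members' signals were described from lists, beside called shares over all genes of 40.4% in ESCs (18.5% higher and 21.9% lower), 56.7% in NPCs (29.3% and 27.4%) and 56.7% in PSA-NCAM+ cells (28.6% and 28.1%). Among 14 Wnt target genes, 6 were higher and 2 lower in slow/slow ESCs, 10 and 2 in NPCs, and 9 and 1 in PSA-NCAM+ cells (edgeR), with medians of 0.04, 0.99 and 0.61 against -0.02, 0.01 and -0.01 over all genes. Without slow/slow replicate 1 the PSA-NCAM+ counts were 10 higher and 3 lower and the median was 0.71, and with only the PSA-NCAM+ groups fitted they were 3 and 0. Lef1, the TCF/LEF factor that is itself a Wnt target, averaged 1.22 ± 0.194 CPM in the WT NPCs and 71.3 ± 2.86 CPM in the slow/slow ones (SD, n = 3; log2 5.86 ± 0.47, edgeR FDR = 5.27e-09). Notum, a secreted Wnt inhibitor, rose in slow/slow ESCs by 1.90 ± 0.15 (edgeR FDR = 6.79e-09), whereas Rnf43, which removes Wnt receptors, was 1.82 ± 0.38 lower. In neurons, as a description, the difference was below 0 for 9 of 14 and above 0 for 5. Sp5, among the former, averaged 14.5 ± 1.47 CPM (WT) and 2.72 ± 0.557 CPM (slow/slow).

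Of 12 FGF target genes, 1 was higher and 2 lower in ESCs, 6 and 2 in NPCs, and 7 and 0 in PSA-NCAM+ cells. Without slow/slow replicate 1 the last counts were 9 and 0. Fitting only the groups compared gave 4 and 3 in ESCs and 3 and 0 in PSA-NCAM+ cells. In total 8 of 12 passed in NPCs and 7 of 12 in PSA-NCAM+ cells, shares near those of all genes. Il17rd, a feedback inhibitor of FGF signalling, averaged 88.0 ± 3.63 CPM in WT NPCs against 323 ± 23.0 CPM in slow/slow (log2 1.87 ± 0.34, edgeR FDR = 0.000122), and Spry2 and Spry4, of the same function, were higher by 1.07 ± 0.14 and 1.01 ± 0.15. In neurons the difference was below 0 for 9 and above 0 for 3, among them Spry4 (log2 -1.70 ± 0.16) and Etv4 (-1.48 ± 0.37) against Egr1 (2.21 ± 0.23).

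The 34 other genes of the streak and mesoderm did not move one way. Counts of higher and lower genes in slow/slow were 5 and 3 in ESCs, 13 and 6 in NPCs, and 12 and 7 in PSA-NCAM+ cells (13 and 8 without replicate 1). The 19 genes called in NPCs and the 19 in PSA-NCAM+ cells are near the share of all genes. Fitting only the groups compared gave 10 and 7 in ESCs and 8 and 3 in PSA-NCAM+ cells. In neurons, as a description, 16 differences were above 0 and 18 below. Sp8, a Wnt and Fgf8 pathway factor of the tail bud, averaged 0.754 ± 0.0685 CPM in WT NPCs against 33.5 ± 3.3 CPM in slow/slow (log2 5.48 ± 0.20, edgeR FDR = 3.41e-13). Hand1 was among the genes called lower there (log2 -3.46). In neurons Mixl1 averaged 6.49 ± 2.14 CPM (WT) and 0.401 ± 0.153 CPM (slow/slow). Hes7, of the segmentation clock, averaged 6.47 ± 1.54 and 0.63 ± 0.0826 CPM. Hand1 and Pdgfra were among those above 0 in neurons (log2 2.33 and 2.07). The trunk Hox genes, targets of Cdx proteins, were mixed as well. Of 22, none was higher and 5 lower in ESCs, 7 and 5 in NPCs, and 5 and 7 in PSA-NCAM+ cells (7 and 7 without replicate 1), and in neurons 10 differences were above 0 and 12 below. Fitting only the groups compared gave 5 and 9 in ESCs and 0 and 5 in PSA-NCAM+ cells. In NPCs and PSA-NCAM+ cells 12 of 22 passed each time, again near the share of all genes. Hoxb8 averaged 0.166 ± 0.0145 CPM in WT NPCs against 3.12 ± 0.89 CPM in slow/slow (log2 4.21 ± 0.75, edgeR FDR = 9.94e-05). Hoxc10 averaged 1.15 ± 0.393 CPM (WT) and 0.0464 ± 0.0248 CPM (slow/slow) in neurons. It was also called lower in slow/slow ESCs, NPCs and PSA-NCAM+ cells (log2 -1.39, -2.59 and -3.68). Hoxa6 was among those above 0 in neurons (log2 1.69).

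**Figure D3:**
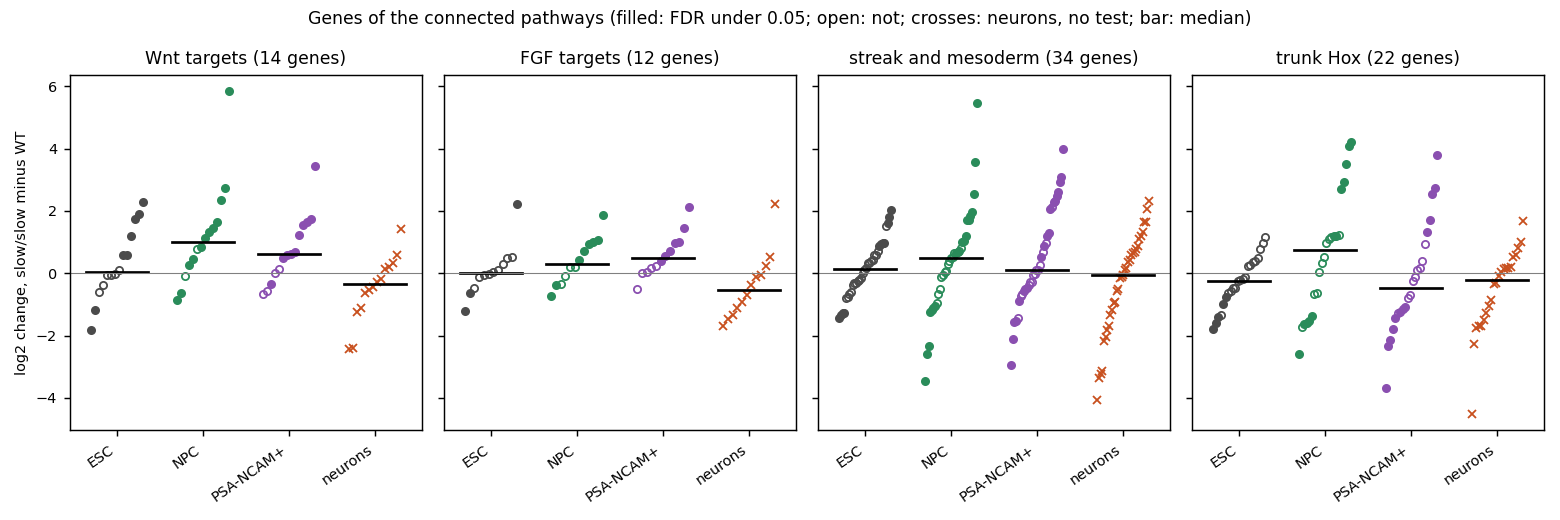
Log2 change, slow/slow minus WT, of each gene on the 4 lists at each stage, with filled points for genes past the edgeR threshold, open points for the others, crosses for neurons, which carry no test, and a bar for the median of the genes drawn. Genes with no read in one of the groups are left out; Wnt targets have medians above 0 in NPCs and PSA-NCAM+ cells and below 0 in neurons.

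Splicing of the members was read from percent spliced in and intron retention where every sample of a stage had at least 15 reads, which gave 20 pairs of event and stage. These are described without a test. The first intron of T (mm9 chromosome 17, 8627602 to 8628055) was retained in 10.55%, 10.25% and 8.9% of reads in WT neurons and in 26.09%, 21.62% and 25.0% in slow/slow neurons, on 20 to 477 reads a sample. The means were 9.9% ± 0.879 and 24.2% ± 2.33 (SD, n = 3). This difference is not set against introns of other genes, so it is not read as particular to T. Introns 2, 6 and 7 of T were retained at 0.833% ± 0.0603, 1.34% ± 0.736 and 1.48% ± 0.346 in WT and at 1.85% ± 1.61, 6.15% ± 2.9 and 4.08% ± 2.93 in slow/slow, and the samples overlapped for introns 2 and 7. The lower T level in slow/slow neurons leaves few reads behind these percentages.

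**Figure D4:**
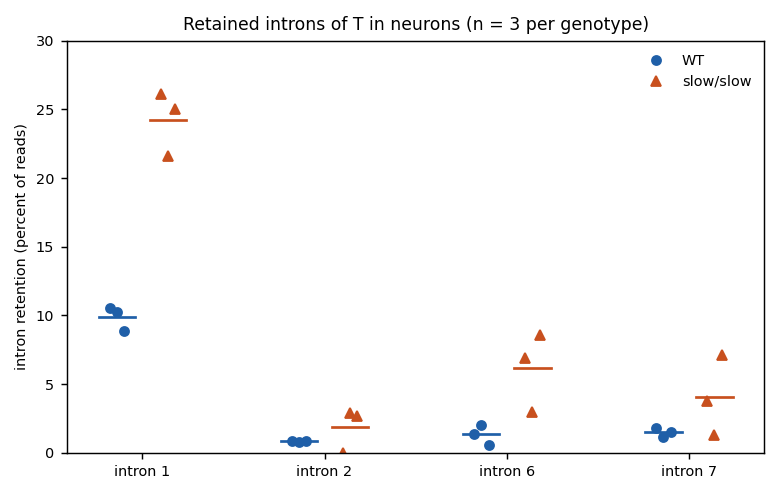
Percent of reads that retain each of the 4 covered introns of T in neurons, with WT as blue circles, slow/slow as orange triangles and the mean as a bar (n = 3 per genotype). Intron 1 lies between 8.9% and 10.55% in WT and between 21.62% and 26.09% in slow/slow.

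Wnt8a was covered in NPCs. Its intron at mm9 chromosome 18, 34702637 to 34704435, was retained at 14.7% ± 2.39 in WT and 23.1% ± 0.962 in slow/slow, and a later one, 34705299 to 34706747, at 24.3% ± 7.38 and 15.3% ± 1.27 (SD, n = 3). One thus went up and the other down in slow/slow, on 17 to 533 reads a sample. Cdx1 in ESCs, where its level did not differ, carried an exon (mm9 chromosome 18, 61183696 to 61183798) included at 5.6% ± 0.741 in WT and 5.24% ± 0.2 in slow/slow on 311 to 676 reads, and its long intron was retained at 4.05% ± 0.662 and 3.27% ± 0.216.

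Genes with the most similar pattern were sought by Pearson's r of log2(CPM + 0.5) over the 8 group means, as a description. Cdx2 was most like Mboat7, Aox4 and Dlx6 (r = 0.96, 0.94 and 0.93). Wnt8a was most like Rgn, Car3 and Tdrd6 (r = 0.99, 0.98 and 0.98). Several matches vary far less than the member they follow, such as Srp9 beside Cdx1 (r = 0.99), which averaged between 58.3 and 99.2 CPM in all 8 groups.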

How the data were processed

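The authors deposited gene counts per sample, made from stranded poly(A)+ libraries read on mm9, with raw counts that, by the study's methods, came from vast-tools, and tables from the same tool of percent spliced in and intron retention, whose quality columns give the reads behind each percent. Group means in RPKM were also deposited by the authors and were not used in any result, and tables of the authors' own comparisons were left unused. The 1114 listed genes without a value were left out. Counts were fitted as 1 model of 8 groups over 24 samples with edgeR 4.0.16 (TMM scaling, filterByExpr, quasi-likelihood test), and p-values were adjusted by Benjamini and Hochberg over 16627 genes, with a threshold of 0.05 and 16 residual degrees of freedom. SE is the log2 change divided by the square root of F. CPM is per 1000000 TMM-scaled counts. The script was tested on simulated data. Alternatives were DESeq2 1.42.0, its size factors in edgeR, upper-quartile scaling, no filter, only the groups compared, the replicate number as a block, and leaving out each sample. The members and lists were chosen with earlier results of these data known. Named genes were the 10 members, the 3 largest changes of each list and stage among genes past the threshold (in neurons by size), from which examples are given, and the 3 genes most like each member, also given in part. Hand1, Pdgfra and Hoxa6, and Hoxc10 in NPCs, are named as well to show the opposite direction. Same-numbered samples deviated together in PSA-NCAM+ cells (mean r = 0.465, every pair between 0.401 and 0.54) but not in ESCs, NPCs or neurons (-0.0186, -0.0514 and -0.0202). In PSA-NCAM+ cells, however, WT replicate 2 with slow/slow replicate 3 gave 0.399, and WT replicate 3 with slow/slow replicate 2 gave 0.241. Replicate 1 thus stood apart from the others in both genotypes, and slow/slow replicate 1 goes against its group. A pairing cannot be told apart from that, so the block is given as an alternative only. Gene positions and exon lengths are from GENCODE on GRCm38 (94.9% of genes matched), and splicing coordinates are on mm9. Intervals cover counting error only.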

Additional observations from a re-analysis of the deposited data

Results flagged for a closer look

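The genotype difference (log2, slow/slow minus WT) differed between NPCs and ESCs by the edgeR interaction test for 8 genes. NPC minus ESC was -1.67 for Cdx1 (FDR = 0.000134), -1.31 for Cdx2 (FDR = 0.000648), 3.56 for Cdx4 (FDR = 0.00672), -0.97 for T (FDR = 0.0264), 4.40 for Nkx1-2 (FDR = 0.000354), -2.42 for Wnt3a (FDR = 1.73e-05), 4.22 for Wnt8a (FDR = 0.012) and 4.05 for Fgf8 (FDR = 2.98e-06), all by edgeR.

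In 17 further pairs of stages every slow/slow sample lay above WT at one stage and below it at the other. These differences were not tested. For neurons minus ESCs they were -5.18 for Cdx2, -5.30 for T, -5.01 for Nkx1-2, -4.07 for Wnt3a and -2.94 for Evx1. For neurons minus NPCs they were -10.79 for Cdx4, which rests on 1 read in slow/slow neurons and is no bound, -4.33 for T, -9.41 for Nkx1-2, -6.93 for Wnt8a, -4.69 for Fgf8 and -2.34 for Evx1. For neurons minus PSA-NCAM+ cells they were -5.58 for T, -3.80 for Wnt3a, -6.39 for Wnt8a and -5.28 for Fgf8. For PSA-NCAM+ cells minus ESCs they were -2.49 for Cdx2 and 4.64 for Fgf8. Without the library labelled slow/slow PSA-NCAM+ replicate 1, the values that use PSA-NCAM+ cells were -5.72 for T, -3.64 for Wnt3a, -6.96 for Wnt8a and -5.51 for Fgf8 (neurons minus PSA-NCAM+ cells) and -2.65 for Cdx2 and 4.87 for Fgf8 (PSA-NCAM+ cells minus ESCs). Of the 16627 genes tested, 3322 had opposite, non-overlapping directions in neurons and ESCs, and the share was 30.2% in neurons and NPCs, 15.3% in neurons and PSA-NCAM+ cells and 4.77% in PSA-NCAM+ cells and ESCs.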

How the results depend on the processing

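Of 656 member values under 6 other settings, 8 changed sign and 20 their side of the threshold; of 720 without 1 sample, 25 changed sign and 40 their side. The 8 sign changes lay at values of 0.06 or less in size that did not pass the test. Upper-quartile scaling gave -0.0018 for Cdx1 in ESCs (genotype difference) and -0.03 for Cdx2 and -0.04 for Nkx1-2 from NPCs to neurons in slow/slow, and it shifted the median of all genes by 0.14 (log2) in the neuron genotype contrast and by -0.273 from WT NPCs to neurons, with no change of direction among the members in those contrasts. DESeq2 gave -0.05 for Wnt8a in ESCs, the fit without a filter 0.0015 for Cdx4 in PSA-NCAM+ cells, and DESeq2 size factors and a fit of only the groups compared 0.0025 and 0.0035 for Cdx2 from NPCs to PSA-NCAM+ cells in slow/slow.

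With the replicate number as a block, Wnt8a in ESCs went to -0.03, Tbx6 passed in PSA-NCAM+ cells (log2 -0.88), Fgf8 passed from NPCs to PSA-NCAM+ cells in slow/slow (-0.63, FDR = 0.0476, edgeR) and Wnt3a lost its call from ESCs to NPCs in WT (0.53, FDR = 0.0591, edgeR). No other member call changed with the block.

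Fitting only the groups compared gave 7 called FGF targets, 17 streak and mesoderm genes and 14 trunk Hox genes in ESCs, and 13 trunk Hox genes in neurons. In PSA-NCAM+ cells it gave 3 Wnt targets, 3 FGF targets, 11 streak and mesoderm genes and 5 trunk Hox genes, and 2 members from NPCs to PSA-NCAM+ cells in slow/slow. The cause was not tested. A minimum of 30 reads left 3 of 20 splicing entries by construction, all of Cdx1 in ESCs. The introns described for T and Wnt8a did not meet that minimum. A pseudocount of 0.1 kept 15 of the 30 most similar genes.

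Without 1 sample, called genes in ESCs numbered 5 to 8 for Wnt targets (5 without slow/slow replicate 1 or 3) and 3 to 4 for trunk Hox (3 without WT replicate 2 or 3 or slow/slow replicate 3), and members called from WT NPCs to PSA-NCAM+ cells 3 to 5 (3 without NPC replicate 2). Genotype differences that changed sign ranged from -0.03 to 0.14 for Cdx1 and -0.93 to 0.43 for Wnt8a in ESCs, -0.08 to 0.34 for Wnt3a in NPCs, and -0.52 to 0.45 for Cdx4 and -0.82 to 0.09 for Evx1 in PSA-NCAM+ cells. Stage differences ranged from -0.32 to 0.34 for Wnt8a (WT NPCs to PSA-NCAM+ cells), and in slow/slow from -0.20 to 0.13 for Cdx2 and -0.92 to 0.06 for Tbx6 (same step) and -0.09 to 0.23 for Cdx2 and -0.07 to 0.14 for Nkx1-2 (NPCs to neurons). The interaction of Tbx6 ranged from -0.36 to 0.17.

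In NPCs Evx1 lost its call without WT replicate 1 (1.06) or 3 (0.99) or slow/slow replicate 1 (0.93) or 3 (1.24), and Tbx6 without WT replicate 2 (-0.75) or 3 (-1.01) or slow/slow replicate 1 (-1.01), 2 (-0.96) or 3 (-0.85). The T interaction lost it without slow/slow ESC replicate 2 (-0.91), WT NPC replicate 1 (-0.84) or slow/slow NPC replicate 1 (-0.92). Tbx6 in PSA-NCAM+ cells gained one without WT replicate 2 (-1.09). With 16 residual degrees of freedom a lone left-out sample's group is assumed to vary like the others.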

Other observations

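The Polr2a transcript itself was at 687 to 738 CPM in WT and 674 to 763 CPM in slow/slow ESCs, and at 307 to 332 CPM in WT and 158 to 176 CPM in slow/slow neurons. Nkx1-2 in slow/slow ESCs, at 55.1 to 57.9 CPM, overlapped with its level in WT neurons of 48.1 to 59.7 CPM.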
